A study of Mus musculus with 10 samples.

Results

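The data presented here describe 8 transcription factors of the ventral spinal cord, *Foxa2*, *Nkx2-2*, *Nkx2-9*, *Nkx6-1*, *Nkx6-2*, *Pax6*, *Irx3* and *Irx5*. They were chosen by gene symbol among the 54146 genes of the count table. All 8 were counted, and 7 passed the filter on low counts, *Nkx2-9* being the exception. The question they address is whether genes of a region outside the main domain of the Wnt1-cre2 transgene differed with the genotype inside a litter, and whether they differed between the litters.

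RNA came from the lumbar spinal cord of 10 mouse embryos at E12.5, from which by the labels the dorsal root ganglia had not been taken off. *Dot1l* encodes a methyltransferase for a lysine of a core histone, and Wnt1-cre2 recombines mainly in the dorsal neural tube and the neural crest. A reporter allele in the study also marked scattered cells of the ventral cord, so the ventral region is not free of recombined cells. The 5 embryos labelled *Dot1l*-cKO were Wnt1cre2/+ with both *Dot1l* alleles floxed (*Dot1l* fl/fl), and all 10 embryos carry the strain name B6.Cg-E2f1Tg(Wnt1-cre)2Sor/J. None of the 5 controls carried the cre. The paper states that the embryos came from 2 litters. The litter of each embryo was inferred from a number in its sample title, which the labels do not name as a litter. Read in this way, litter 1 held 3 controls that were *Dot1l* fl/fl and 3 embryos labelled *Dot1l*-cKO. Litter 2 held 2 controls that were *Dot1l* fl/+ and 2 embryos labelled *Dot1l*-cKO. Among controls, the number of floxed alleles (2 or 1) and the litter therefore cannot be told apart. No embryo carried the transgene without the floxed alleles, and the strain name places the transgene at *E2f1* on chromosome 2, where *Foxa2* lies 6.51 Mb, *Nkx2-2* 7.37 Mb and *Pax6* 48.86 Mb away.

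Total counts lay between 40949585 and 68928443 per embryo. *Dot1l* itself was at 87.6 to 107 CPM (reads of the gene relative to the TMM-adjusted library total, on the usual CPM scale) in controls and at 97.8 to 112 CPM in embryos labelled *Dot1l*-cKO (log2 fold change 0.17, standard error 0.06, edgeR adjusted p = 0.130). The whole-gene value thus shows no loss of *Dot1l* and serves as no check of the label, the deleted exons not being analysed here on their own. *Xist* was at 6.00 and 6.79 CPM in cKO replicates 4 and 5 (litter 2) and between 499 and 890 CPM in the other 8, so that in litter 2 the sex of the embryos and the labelled genotype cannot be told apart. For the same reason the sex and the litter cannot be told apart among the embryos labelled *Dot1l*-cKO. In whole tissue, fewer cells of a type and less RNA per cell cannot be told apart either.

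In the ventral neural tube, Sonic hedgehog secreted by the notochord and the floor plate is graded from ventral to dorsal, and progenitors read it through GLI factors. *Foxa2* is expressed by the floor plate, and *Nkx2-2* and *Nkx2-9* by the adjacent p3 progenitors, which give rise to V3 interneurons. *Nkx6-1* and *Nkx6-2* are class II homeodomain factors, which Sonic hedgehog induces across several ventral progenitor domains. *Pax6*, *Irx3* and *Irx5* belong to the factors that the signal holds back ventrally, and pairs of factors from both classes repress each other and so set the borders between domains. *Pax6* and the Iroquois genes are also made by dorsal progenitors, so the label of a ventral region fits them less strictly than it fits *Foxa2* or *Nkx2-2*.

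For comparison between genes, levels were divided by the exon length of the gene and are given as CPM per kb over all 10 embryos. *Nkx6-1* stood highest at 8.51 ± 0.883 CPM per kb (SD, n = 10), and its lowest embryo (7.00) lay above the highest embryo of any other member. *Irx3* (4.23 ± 1.41 CPM per kb, SD, n = 10), *Pax6* (3.90 ± 0.987) and *Irx5* (3.26 ± 0.862) followed, and the ranges of neighbours in this order overlapped. *Nkx6-2* (1.47 ± 0.637 CPM per kb, SD, n = 10), *Nkx2-2* (1.303 ± 0.212) and *Foxa2* (1.22 ± 0.150) were lower and likewise overlapped one another. *Nkx2-9* was lowest at 0.0970 ± 0.0597 CPM per kb (SD, n = 10). The exon length of *Pax6* sums the exons of all its annotated transcripts (11694 bp), against 1264 to 3138 bp in the other 7, which lowers its value per kb.

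**Figure D1:**
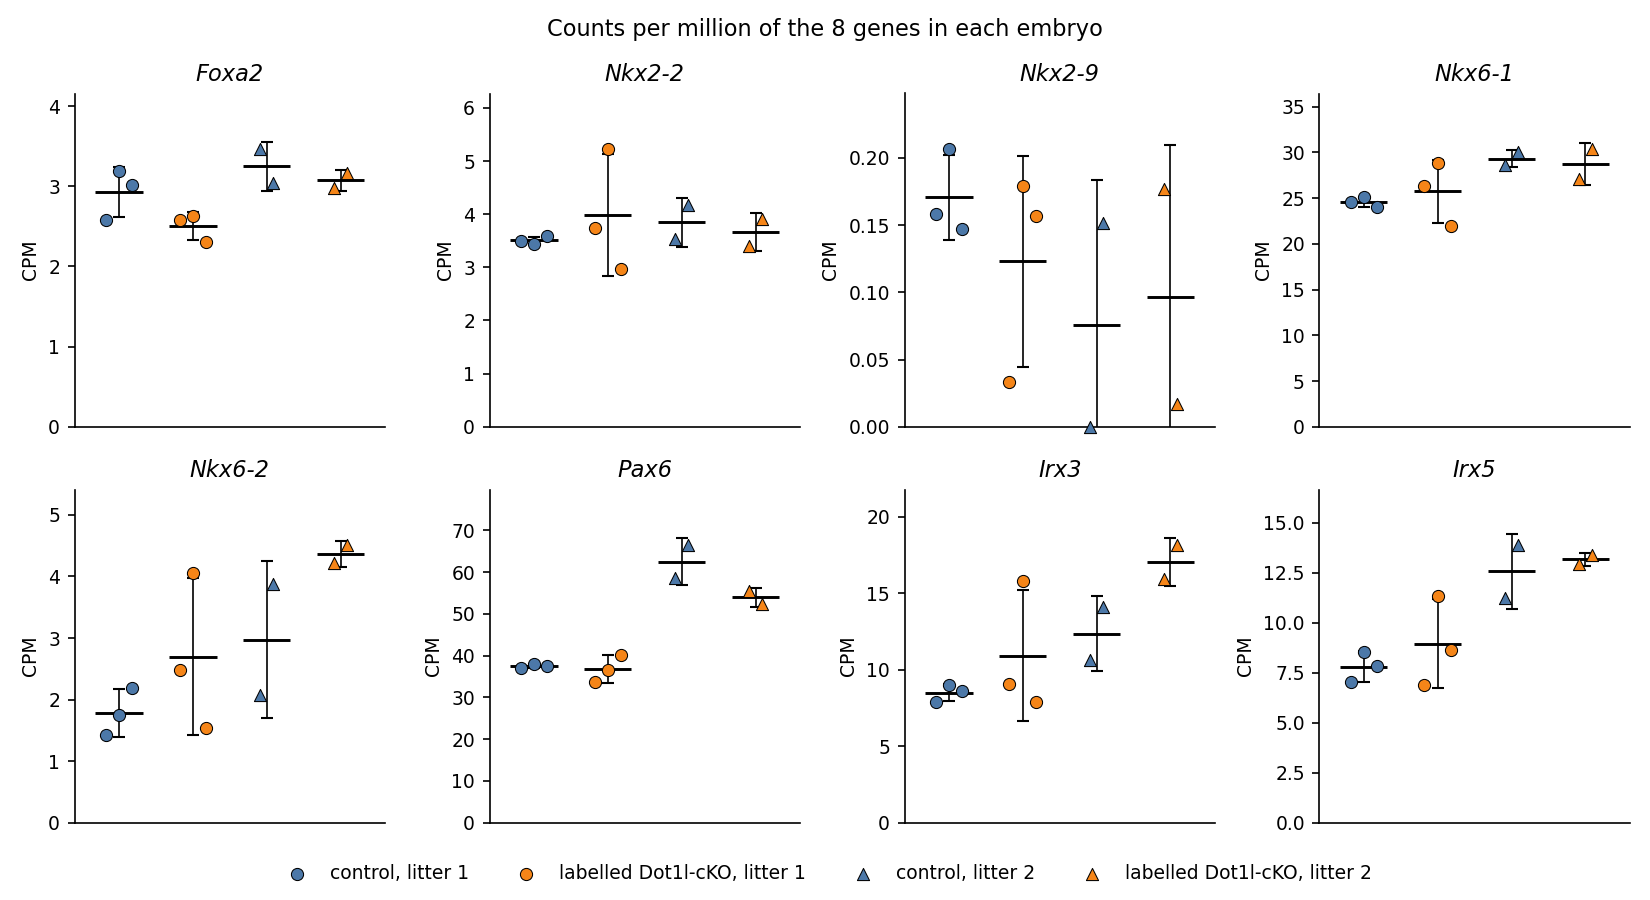
Level of each of the 8 genes in every embryo, in CPM on a linear axis that starts at 0 and differs between panels. Circles are embryos of litter 1 and triangles of litter 2, blue for controls and orange for embryos labelled *Dot1l*-cKO, with the mean as a line and the SD as a bar. The 4 embryos of litter 2 lie above the 6 of litter 1 for *Pax6*, and 1 embryo labelled *Dot1l*-cKO of litter 1 lies with litter 2 for *Irx3*.

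Promoter sequences are shown for the 4 members with a RefSeq promoter that passed the test between litters described further on, and for *Nkx2-2*, whose litter difference was the smallest of the 7 tested members, so that their composition and the GLI motif can be compared. They are the 250 bases before the RefSeq start on GRCm38.p6, 5′ to 3′ on the strand of the gene, and capitals mark the GLI core CCACCC on either strand. The windows are chr5:101664712-101664961 (minus strand) for *Nkx6-1*, chr7:139582798-139583047 (minus) for *Nkx6-2*, chr2:105668646-105668895 (plus) for the first of 2 promoters of *Pax6*, chr8:91801655-91801904 (minus) for *Irx3* and chr2:147186403-147186652 (minus) for *Nkx2-2*.
Nkx6-1: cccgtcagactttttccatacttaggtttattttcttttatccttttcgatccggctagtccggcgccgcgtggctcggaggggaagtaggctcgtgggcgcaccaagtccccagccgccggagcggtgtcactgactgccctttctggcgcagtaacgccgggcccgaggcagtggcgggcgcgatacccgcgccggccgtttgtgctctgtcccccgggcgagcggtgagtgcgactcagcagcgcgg
Nkx6-2: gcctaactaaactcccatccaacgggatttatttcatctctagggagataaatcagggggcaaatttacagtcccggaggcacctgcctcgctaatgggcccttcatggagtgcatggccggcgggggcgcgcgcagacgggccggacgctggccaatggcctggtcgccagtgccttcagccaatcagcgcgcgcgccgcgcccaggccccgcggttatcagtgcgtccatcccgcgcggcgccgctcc
Pax6: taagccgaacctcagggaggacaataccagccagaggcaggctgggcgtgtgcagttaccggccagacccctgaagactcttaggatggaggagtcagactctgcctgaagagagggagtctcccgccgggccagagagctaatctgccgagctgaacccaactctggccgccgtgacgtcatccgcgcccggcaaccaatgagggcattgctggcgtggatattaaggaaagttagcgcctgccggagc
Irx3: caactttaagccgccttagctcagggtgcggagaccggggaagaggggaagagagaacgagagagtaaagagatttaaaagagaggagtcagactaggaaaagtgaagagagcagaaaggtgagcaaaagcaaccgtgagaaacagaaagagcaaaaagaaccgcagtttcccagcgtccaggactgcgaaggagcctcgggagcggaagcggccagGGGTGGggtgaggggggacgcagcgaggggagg
Nkx2-2: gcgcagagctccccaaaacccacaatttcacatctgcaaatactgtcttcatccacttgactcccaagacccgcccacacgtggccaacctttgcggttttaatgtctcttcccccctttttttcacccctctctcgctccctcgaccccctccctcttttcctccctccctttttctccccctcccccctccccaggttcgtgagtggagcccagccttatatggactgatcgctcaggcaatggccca

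Promoters of 7 of the 8 members were matched, 10 in all, and *Irx5* had no entry. The full GLI motif GACCACCCA was found in 0 of the 10 windows, beside 0.225% of the 32841 promoter windows of all genes, and its core CCACCC in 4 of 10, beside 28.1%. The core, which also lies inside the full motif, stood 33 bases before the start of *Irx3*, 207 bases before that of *Nkx2-9*, and in 2 of the 3 promoters of *Foxa2*. The homeodomain motif TAATTA was found in 0 of 10, beside 4.84%. The windows held 47.6 to 67.2% G and C and 6 to 30 CpG, beside medians of 52.4% and 6 CpG over all promoters, and both Nkx6 promoters stood high in CpG (30 for *Nkx6-1* and 26 for *Nkx6-2*). A match of letters is not a bound site, and promoter binding was not measured here.

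The floor plate factor *Foxa2*, a forkhead protein that sets floor plate identity (chromosome 2 from 148042877 to 148046969, minus strand), did not pass the test for genotype or litter. In controls it was at 2.58, 3.19 and 3.01 CPM in litter 1 and at 3.46 and 3.04 CPM in litter 2. The embryos labelled *Dot1l*-cKO were at 2.58, 2.63 and 2.31 CPM in litter 1 and at 2.98 and 3.16 CPM in litter 2. The groups overlapped, with 1 control and 1 embryo labelled *Dot1l*-cKO of litter 1 at the same rounded level. The log2 fold change with the litter in the model was -0.17 (standard error 0.111, 95% interval -0.41 to 0.07, edgeR adjusted p = 0.416).

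*Nkx2-2*, the homeodomain factor that defines the p3 domain (chromosome 2 from 147177546 to 147194243, minus strand), was narrow in the controls of litter 1 and wide in the embryos labelled *Dot1l*-cKO of that litter. Its levels were 3.49, 3.44 and 3.58 CPM in controls of litter 1 and 3.52 and 4.17 CPM in those of litter 2. Embryos labelled *Dot1l*-cKO had 3.75, 5.23 and 2.97 CPM in litter 1 and 3.41 and 3.91 CPM in litter 2. Both the highest and the lowest of the 10 values thus belonged to embryos labelled *Dot1l*-cKO of litter 1, and the log2 fold change was 0.08 (standard error 0.144, 95% interval -0.23 to 0.39, edgeR adjusted p = 0.792). Without the embryo at 5.23 CPM (cKO replicate 2) it was -0.07.

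*Nkx2-9*, the second p3 homeodomain factor (chromosome 12 from 56611389 to 56613284, minus strand), was close to the limit of detection and did not pass the filter on low counts. It had 9, 9 and 9 counts in the controls of litter 1 and 0 and 6 counts in those of litter 2. The embryos labelled *Dot1l*-cKO had 2, 10 and 11 counts in litter 1 and 10 and 1 counts in litter 2. The count of 0 allows up to 0.0597 CPM in that embryo (3 counts, counting error only). With no filter it was tested and did not pass, with a log2 fold change of -0.15 between genotypes (edgeR adjusted p = 0.933) and of -0.77 between litters (edgeR adjusted p = 0.492), so that no difference was detectable at this depth.

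*Nkx6-1*, a homeodomain repressor needed for motor neuron and V2 interneuron fates (chromosome 5 from 101658139 to 101664996, minus strand), had the smallest fold change between genotypes of the 7 tested members. Controls stood at 24.5, 25.1 and 24.1 CPM in litter 1 and at 28.6 and 29.98 CPM in litter 2. The embryos labelled *Dot1l*-cKO stood at 26.4, 28.8 and 21.97 CPM in litter 1 and at 27.1 and 30.4 CPM in litter 2. Genotypes overlapped in both litters, and the log2 fold change was 0.03 (standard error 0.071, 95% interval -0.13 to 0.18, edgeR adjusted p = 0.863). Without cKO replicate 2 the sign turned (-0.03).

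*Nkx6-2*, its paralog with an overlapping ventral domain (chromosome 7 from 139579376 to 139582797, minus strand), had the largest fold change between genotypes among the 7 tested members. Controls were at 1.42, 1.74 and 2.19 CPM in litter 1 and at 2.07 and 3.87 CPM in litter 2. In embryos labelled *Dot1l*-cKO it was at 2.48, 4.06 and 1.54 CPM in litter 1 and at 4.22 and 4.51 CPM in litter 2. The groups overlapped in litter 1, while both embryos labelled *Dot1l*-cKO of litter 2 lay above both controls. The log2 fold change was 0.57 (standard error 0.235, 95% interval 0.07 to 1.08), and it did not pass after adjustment over all tested genes (edgeR adjusted p = 0.175).

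*Pax6*, a paired homeodomain factor that sets the graded border with the p3 domain (chromosome 2 from 105668900 to 105697364, plus strand), separated the litters and not the genotypes. It stood at 37.0, 38.1 and 37.5 CPM in the controls of litter 1 and at 58.5 and 66.5 CPM in those of litter 2. The embryos labelled *Dot1l*-cKO had 33.6, 36.6 and 40.2 CPM in litter 1 and 55.6 and 52.3 CPM in litter 2. The genotypes overlapped in litter 1, and in litter 2 both embryos labelled *Dot1l*-cKO lay below both controls. The log2 fold change between genotypes was -0.10 over both litters (standard error 0.061, 95% interval -0.23 to 0.03, edgeR adjusted p = 0.360) and -0.21 in litter 2 (standard error 0.090, edgeR adjusted p = 0.255).

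*Irx3*, an Iroquois homeodomain factor paired with *Olig2* at the border of the motor neuron domain (chromosome 8 from 91798525 to 91802067, minus strand), had 7.88, 8.99 and 8.61 CPM in the controls of litter 1 and 10.6 and 14.1 CPM in those of litter 2. Embryos labelled *Dot1l*-cKO were at 9.06, 15.8 and 7.87 CPM in litter 1 and at 15.9 and 18.1 CPM in litter 2. The embryo at 15.8 CPM, cKO replicate 2, stood apart from the rest of its litter and beside the embryos of litter 2. The log2 fold change between genotypes was 0.40 (standard error 0.157, 95% interval 0.07 to 0.74), and it did not pass either (edgeR adjusted p = 0.156).

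Its neighbour in the genome *Irx5*, a member of the same family and cluster (chromosome 8 from 92357625 to 92376286, plus strand), showed a smaller difference. The controls had 7.04, 8.56 and 7.84 CPM in litter 1 and 11.3 and 13.9 CPM in litter 2. The embryos labelled *Dot1l*-cKO had 6.91, 11.3 and 8.63 CPM in litter 1 and 12.95 and 13.4 CPM in litter 2. Genotypes overlapped within each litter, and the log2 fold change was 0.15 (standard error 0.119, 95% interval -0.11 to 0.40, edgeR adjusted p = 0.512).

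Across genotypes, 0 of the 7 tested members passed the quasi-likelihood test of edgeR (adjusted p at 0.05 after Benjamini-Hochberg), beside 2.99% of all tested genes (591 of 19773), and 2 of the 7 had an unadjusted p below 0.05, *Nkx6-2* and *Irx3*. DESeq2's Wald test and limma-voom gave 0 members each, beside 8.3% and 2.15% of the genes they tested. The median log2 fold change of the 7 was 0.08, beside -0.01 over all tested genes. The count depended on 1 library. Without cKO replicate 3, the embryo with the lowest *Nkx2-2*, *Nkx6-1* and *Foxa2*, both *Nkx6-2* (log2 fold change 0.73, edgeR adjusted p = 0.0486) and *Irx3* (0.51, edgeR adjusted p = 0.0428) passed, beside 7.01% of all genes tested in that fit. Without cKO replicate 2 their log2 fold changes were 0.36 and 0.22 and neither passed, beside 2.66% of genes. With no filter on low counts both passed as well, with edgeR adjusted p = 0.00350 for *Nkx6-2* and 0.000437 for *Irx3*, beside 6.25% of the 35244 genes then tested. In both fits where the 2 members passed, the share of all genes called was thus above that of the fit with every embryo and the filter. Controls and embryos labelled *Dot1l*-cKO overlapped for each of the 7 members, whereas 1.93% of all tested genes did not overlap.

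Within litter 1 (3 against 3 embryos), 0 of the 7 members passed, beside 0.612% of all tested genes, and each of the 7 overlapped between genotypes, beside 18.6% of genes that did not. Within litter 2 (2 against 2), 0 of 7 passed as well, beside 0.202% of all tested genes. There the groups did not overlap for 3 members, *Nkx6-2* and *Irx3* being higher and *Pax6* lower in the embryos labelled *Dot1l*-cKO, beside 51.7% of all tested genes. The log2 fold changes of *Nkx6-2* were 0.58 in litter 1 and 0.57 in litter 2 (standard errors 0.317 and 0.375), and those of *Irx3* were 0.36 and 0.47 (standard errors 0.209 and 0.251). Single embryos moved these values widely. Without cKO replicate 2 those of litter 1 were 0.16 for *Nkx6-2* and -0.0070 for *Irx3*, and without cKO replicate 3 they were 0.87 and 0.55. In litter 2 they were 0.18 and 0.28 without control replicate 4, and 1.077 and 0.68 without control replicate 5. The difference of the genotype effect between litters passed for 0 of the 7 members, beside 0.0101% of all tested genes, with *Pax6* having the lowest adjusted p (0.688 by edgeR) and no member an unadjusted p below 0.05.

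Between the litters, with the genotype in the model, 5 of the 7 tested members were higher in litter 2, beside 34.7% of all tested genes that passed in either direction (3337 higher and 3521 lower). These were both Nkx6 factors and the 3 members of class I, while *Foxa2* and *Nkx2-2* did not pass. Each litter was 1 litter only, so that the p-values of this comparison measure the spread between embryos and not between litters.

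The log2 fold change of *Pax6*, at a mean of 37.2 ± 2.15 CPM (SD, n = 6) in litter 1 and 58.2 ± 6.05 CPM (SD, n = 4) in litter 2, was 0.64 (standard error 0.062, edgeR adjusted p = 4.5e-06). *Pax6* was also the 1 member of the 7 whose litters did not overlap over all 10 embryos, beside 23.4% of all tested genes. *Irx5* followed with 8.39 ± 1.62 CPM (SD, n = 6) in litter 1 and 12.9 ± 1.15 CPM (SD, n = 4) in litter 2 (log2 fold change 0.62, standard error 0.120, edgeR adjusted p = 0.00112). *Irx3* had 9.70 ± 3.03 CPM (SD, n = 6) and 14.7 ± 3.18 CPM (SD, n = 4), a log2 fold change of 0.59 (standard error 0.158, edgeR adjusted p = 0.00950). Each of these 3 calls held with any 1 embryo left out. With *Xist* as a covariate, *Pax6* (log2 fold change 0.74, edgeR adjusted p = 8.65e-05) and *Irx5* (0.69, edgeR adjusted p = 0.0123) still passed and the other 3 did not, beside 24.2% of all tested genes.

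For *Nkx6-2* the litters stood at 2.24 ± 0.978 CPM (SD, n = 6) and 3.67 ± 1.10 CPM (SD, n = 4), and the log2 fold change was 0.71 (standard error 0.236, edgeR adjusted p = 0.0307). *Nkx6-1* had 25.1 ± 2.31 CPM (SD, n = 6) and 29.0 ± 1.496 CPM (SD, n = 4), a log2 fold change of 0.21 (standard error 0.073, edgeR adjusted p = 0.0397). Both calls were lost in most refits without an embryo. That of *Nkx6-1* held in 2 of 10 refits with an embryo removed (without cKO replicate 2 or 4), and that of *Nkx6-2* in 4 (without control replicate 3 or 4 or cKO replicate 2 or 3). *Foxa2* was at 2.72 ± 0.322 CPM (SD, n = 6) and 3.16 ± 0.216 CPM (SD, n = 4), with a log2 fold change of 0.23 (95% interval -0.02 to 0.47, edgeR adjusted p = 0.141). *Nkx2-2* was at 3.74 ± 0.772 CPM (SD, n = 6) and 3.75 ± 0.354 CPM (SD, n = 4), with a log2 fold change of 0.01 (95% interval -0.31 to 0.32, edgeR adjusted p = 0.983).

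**Figure D2:**
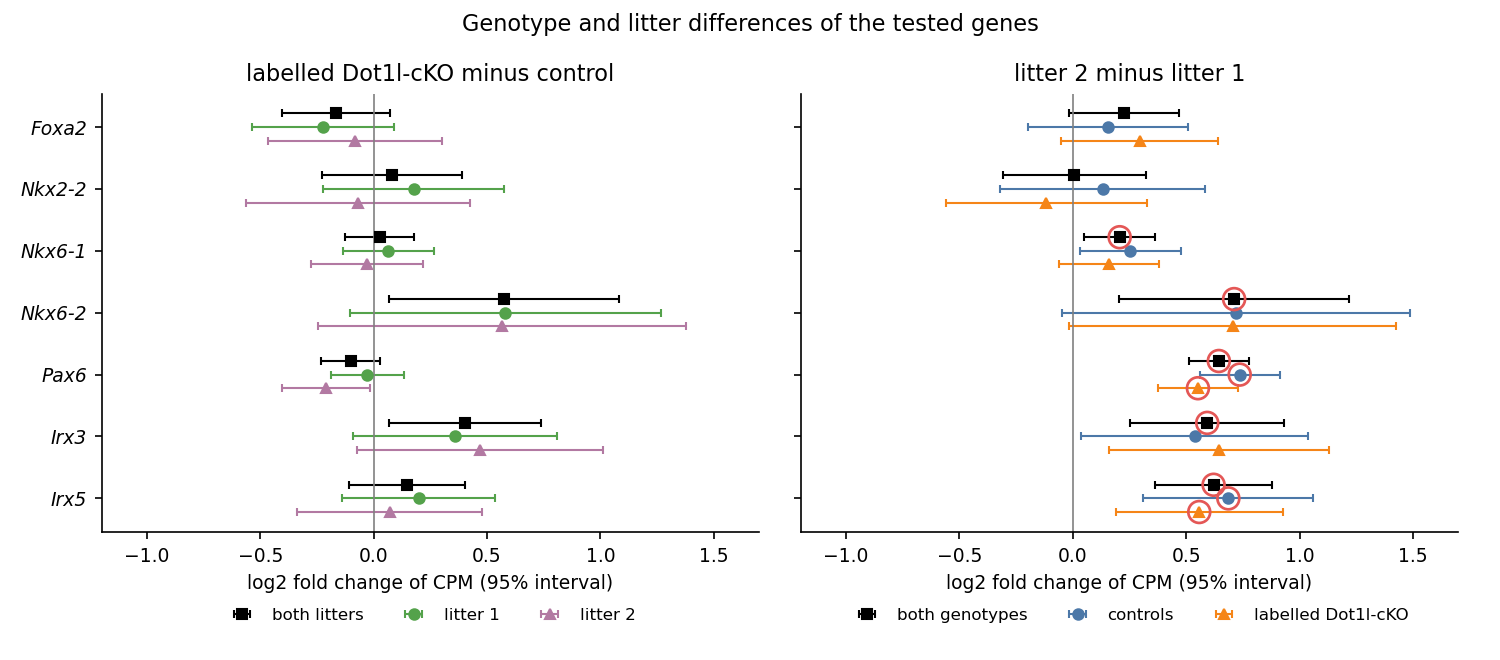
Log2 fold changes of the 7 tested genes with their 95% intervals, between genotypes on the left and between litters on the right. Black squares are the fit over all 10 embryos, coloured symbols the fits within a litter or within a genotype, and a red ring marks an edgeR adjusted p below 0.05. No ring appears on the left, and on the right *Pax6* and *Irx5* carry a ring in each of the 3 fits.

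The litter comparison was repeated within each genotype. Among the controls, where 2 floxed alleles face 1, *Pax6* (log2 fold change 0.74, standard error 0.082, edgeR adjusted p = 7.7e-05) and *Irx5* (0.69, standard error 0.174, edgeR adjusted p = 0.0119) passed, 2 of the 7 members beside 24.2% of all tested genes. The litters did not overlap for 4 of the 7 in controls, *Nkx6-1*, *Pax6*, *Irx3* and *Irx5*, beside 51.1% of all tested genes. Among the embryos labelled *Dot1l*-cKO, which have 1 labelled genotype in both litters, *Pax6* (0.55, standard error 0.082, edgeR adjusted p = 0.000518) and *Irx5* (0.56, standard error 0.170, edgeR adjusted p = 0.0336) passed again, 2 of the 7 beside 21.3% of all tested genes. Here 5 of the 7 did not overlap, *Foxa2*, *Nkx6-2*, *Pax6*, *Irx3* and *Irx5*, beside 50.3% of all tested genes. In these embryos the litter cannot be told apart from the sex, *Xist* being at 499 to 596 CPM in litter 1 and at 6.00 and 6.79 CPM in litter 2. Leaving out 1 embryo lost *Irx5* in the controls without control replicate 1 or 5, and in the embryos labelled *Dot1l*-cKO without cKO replicate 1, 3, 4 or 5.

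The general progenitor genes differed between the litters in the same direction. Of 16 neural progenitor genes, 13 were higher and 2 lower in litter 2, with a median log2 fold change of 0.52, led by *Sox3* (1.298) with *Slc1a3* lowest (-0.63). Their summed level was 3590 to 3780 CPM in controls and 3350 to 3740 CPM in embryos labelled *Dot1l*-cKO of litter 1, and 4370 to 4610 CPM and 4410 to 4610 CPM in litter 2. When every embryo was scaled to the sum of this list in place of its TMM library size, the median log2 fold change of all genes between litters moved by -0.32. On that scale 2 members passed, *Pax6* (log2 fold change 0.32, edgeR adjusted p = 0.000875) and *Irx5* (0.30, edgeR adjusted p = 0.0189), beside 61.8% of all tested genes. *Irx3* (0.28) and *Nkx6-2* (0.39) stayed above 0 without passing, and *Foxa2* (-0.09), *Nkx2-2* (-0.31) and *Nkx6-1* (-0.11) turned below 0.

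**Figure D3:**
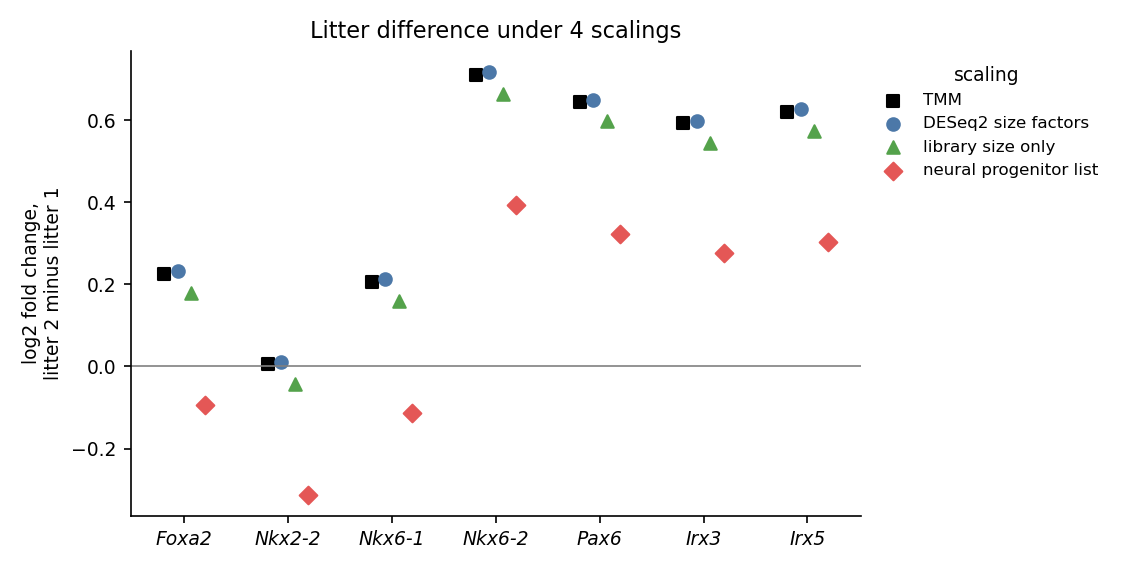
Log2 fold change between litters of the 7 tested genes under 4 ways of scaling the embryos. The TMM, DESeq2 and library size values lie close to each other for each gene, and scaling to the summed neural progenitor genes (red diamonds) lowers every gene by about the same amount, which takes *Foxa2*, *Nkx2-2* and *Nkx6-1* below 0. *Nkx2-2*, near 0 throughout the other 3, is also below 0 by library size.

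Of 7 other factors of ventral progenitors, 3 were higher and 3 lower in litter 2, with a median log2 fold change of 0.35, and when scaled to the progenitor list 2 were higher and 3 lower, with a median of 0.03. The largest difference among them was that of *Olig1*, a basic helix-loop-helix factor of the motor neuron and oligodendrocyte lineage, at 5.14 to 12.3 CPM over the 6 embryos of litter 1 and 0.996 to 2.58 CPM over the 4 of litter 2 (log2 fold change -2.32, standard error 0.214, edgeR adjusted p = 3.4e-06). *Olig2*, the factor that represses *Irx3* at the motor neuron border, was lower as well (-0.51, standard error 0.120, edgeR adjusted p = 0.00429). *Prdm12*, which marks p1 progenitors and is also expressed by sensory neurons, was the third (-0.45, edgeR adjusted p = 0.0129). Its litter difference was -0.84 among controls (edgeR adjusted p = 0.000158) and -0.08 among embryos labelled *Dot1l*-cKO (edgeR adjusted p = 0.645). *Foxn4* of the p2 domain (1.01, edgeR adjusted p = 0.00132), *Dbx1* of the p0 domain (0.64, edgeR adjusted p = 0.00528), and *Sp8* (0.58, edgeR adjusted p = 0.00225) were higher. *Dbx2*, whose domain *Nkx6-1* limits, did not pass (0.35, edgeR adjusted p = 0.0525). The signs of the called genes held under each of the 4 scalings. Between genotypes 0 of the 7 passed, with *Olig1* highest (0.61, edgeR adjusted p = 0.0894) and *Prdm12* lowest (-0.44, edgeR adjusted p = 0.0618), and in litter 1 alone *Prdm12* fell (log2 fold change -0.74, edgeR adjusted p = 0.00970).

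Of 6 floor plate genes other than *Foxa2*, among them *Shh* and *Foxa1*, 0 passed between genotypes and 0 between litters, with medians of 0.14 and 0.05. *Shh*, the ligand, was at 9.36 to 13.0025 CPM over the 10 embryos (log2 fold change between genotypes 0.04, edgeR adjusted p = 0.840, and between litters 0.21, edgeR adjusted p = 0.0628), and *Foxa1*, the paralog of *Foxa2*, at 1.90 to 3.67 CPM (0.14, edgeR adjusted p = 0.665, and -0.08, edgeR adjusted p = 0.755). Among controls alone *Shh* was higher in litter 2 (0.35, edgeR adjusted p = 0.0315), and among embryos labelled *Dot1l*-cKO it did not pass (0.08, edgeR adjusted p = 0.678). When scaled to the progenitor list, 4 of the 6 were lower in litter 2 and none higher, beside 61.8% of all tested genes that passed in either direction. *Foxa2* can also come from notochord or gut endoderm. The notochord gene *Noto* was at 0 in all 10 embryos and *T* at 0.339 to 0.790 CPM, and of the endoderm genes *Foxa3* and *Cdx2* reached at most 0.0333 and 0.0253 CPM. From the same lists, *Krt8* was higher in embryos labelled *Dot1l*-cKO (log2 fold change 1.62) and in litter 2 (1.92). *Krt18* and *Epcam* (0.66) were higher in litter 2 only, and the other tested genes of both lists passed neither test. The part of such tissue in the *Foxa2* values was not tested.

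In the Sonic hedgehog pathway, 8 of 12 genes were higher and 1 lower in litter 2, with a median log2 fold change of 0.36, and when scaled to the progenitor list 5 were higher and 3 lower, with a median of 0.04. The transcription factors *Gli3* (1.004, edgeR adjusted p = 2.5e-05) and *Gli2* (0.71, edgeR adjusted p = 0.000417) and the co-receptors *Gas1* (0.96, edgeR adjusted p = 4.0e-05), *Boc* (0.89, edgeR adjusted p = 4.6e-06) and *Cdon* (0.55, edgeR adjusted p = 1.4e-05) differed most. The signal transducer *Smo* (0.46, edgeR adjusted p = 0.000160), the inhibitor *Sufu* (0.26, edgeR adjusted p = 0.00208) and the receptor *Ptch1* (0.20, edgeR adjusted p = 0.0155) differed less, and the signs of the latter 2 turned when scaled to the progenitor list. *Gli1*, the transcriptional read-out of the pathway, did not pass (-0.35, edgeR adjusted p = 0.0799). Among controls alone it was lower in litter 2 (-0.69, edgeR adjusted p = 0.00986), and among embryos labelled *Dot1l*-cKO it did not pass (-0.03, edgeR adjusted p = 0.927). Between genotypes 1 of the 12 passed, *Cdon*, which was lower in embryos labelled *Dot1l*-cKO (-0.26, edgeR adjusted p = 0.0410). *Gli3* had the lowest log2 fold change of the 12 without passing (-0.43, edgeR adjusted p = 0.0627), and *Gli1* the highest (0.03, edgeR adjusted p = 0.937), with a median of -0.12.

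Of 13 paralogs of the members, 5 passed the filter and 4 were at 0 in every embryo. *Irx2* (log2 fold change 0.59, edgeR adjusted p = 0.000253) and *Irx6* (0.50, edgeR adjusted p = 0.0284) were higher in litter 2 and 0 differed between genotypes. Scaled to the progenitor list, 1 of the 5 was higher and 1 lower in litter 2. The highest log2 fold change between genotypes was that of *Irx4* (0.64, edgeR adjusted p = 0.154) and the lowest that of *Irx6* (-0.32, edgeR adjusted p = 0.269), and neither passed.

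**Figure D4:**
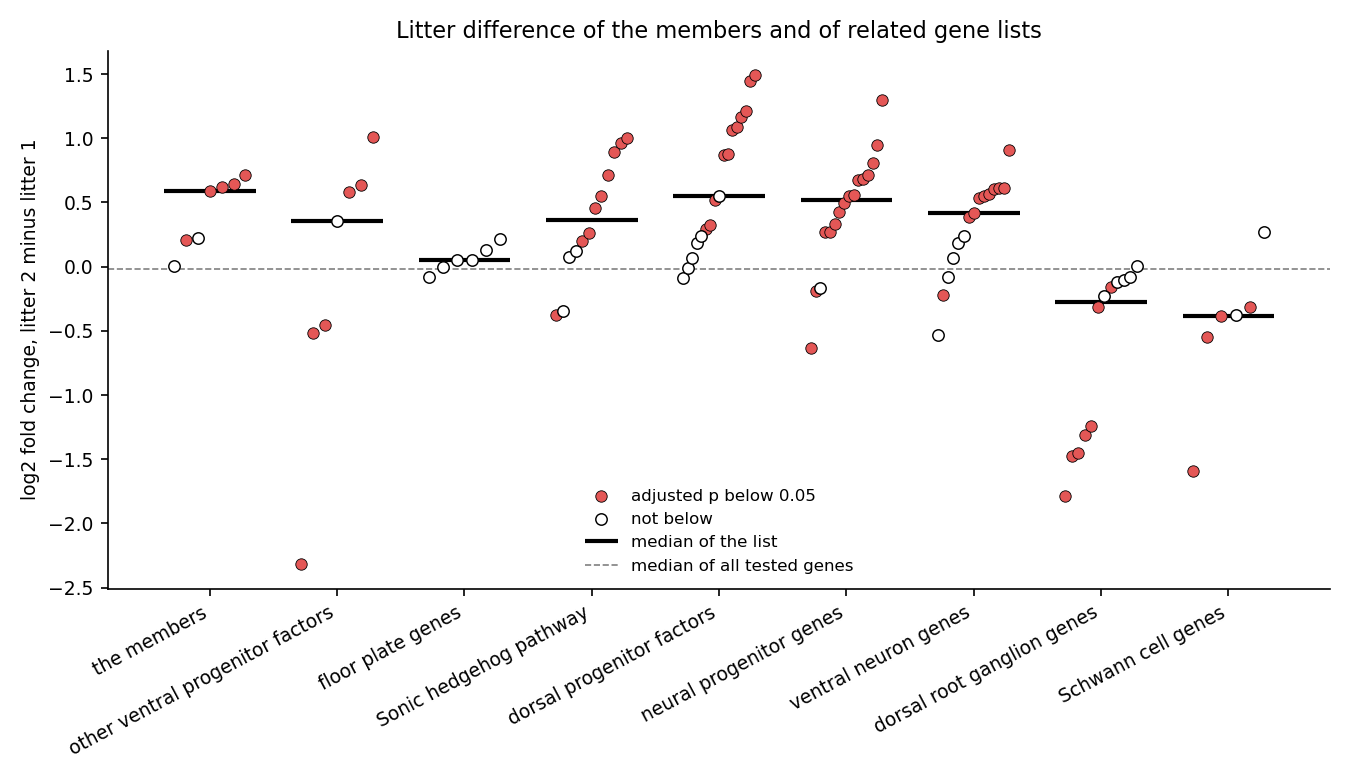
Log2 fold change between litters of the tested members and of the tested genes of 8 lists, 1 point per gene, filled red where the edgeR adjusted p was below 0.05. Black bars are list medians and the dashed line the median of all tested genes (-0.02). The medians of the members and of the progenitor and ventral neuron lists lie above the line, that of the floor plate genes close to it, and those of the dorsal root ganglion and Schwann cell genes below it.

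Markers of other cells moved with the litter too. Of 17 dorsal progenitor factors 11 were higher in litter 2 and 0 lower (median log2 fold change 0.55), and of 15 genes of ventral neurons 9 were higher and 1 lower (0.42). Of 12 dorsal root ganglion genes 7 were lower and 0 higher (median -0.27), with sums of 2930 to 3220 CPM in litter 1 and 2560 to 3030 CPM in litter 2. Of 6 Schwann cell genes 4 were lower (median -0.38), with sums of 223 to 285 CPM in litter 1 and 146 to 211 CPM in litter 2. Of 6 erythroid genes 4 were higher in litter 2, among them the embryonic globin *Hbb-bh1* (6.50 to 11.6 CPM in litter 1 and 38.4 to 61.1 CPM in litter 2). Of the 5 endothelial genes 3 were lower and 0 higher. Of the 8 mesenchyme genes 2 were higher and 1 lower, of the 6 sclerotome genes 1 was higher, of the 5 tested notochord genes 2, of the 3 tested gut endoderm genes 1 and of the 6 lumbar Hox genes 2. Among controls alone 5 mesenchyme genes and all 5 endothelial genes were lower, beside 24.2% of all tested genes. Among embryos labelled *Dot1l*-cKO 2 mesenchyme genes were higher and 1 lower and 0 endothelial genes passed, beside 21.3%. All 6 lumbar Hox genes were expressed in each embryo, with sums of 453 to 617 CPM. When scaled to the neural progenitor list, 61.8% of all tested genes passed in either direction, and the median log2 fold change of all genes moved by -0.32. Beside that share, 8 dorsal progenitor factors were higher and 3 lower, 6 ventral neuron genes higher and 3 lower, and 2 erythroid genes higher and 0 lower. On that scale all 12 dorsal root ganglion genes, 5 of 6 Schwann cell genes and all 5 endothelial genes were lower, 1 mesenchyme gene was higher and 6 lower, and 1 sclerotome gene was higher and 2 lower. Of the lumbar Hox genes 0 were then higher and 3 lower, of the notochord genes 1 higher and 1 lower, and of the gut endoderm genes 0 higher and 1 lower. The part of these differences in the litter values of the members was not tested.

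Between genotypes, 3 of the 17 dorsal progenitor factors were lower in embryos labelled *Dot1l*-cKO (*Zic1*, *Zic4* and *Zic5*, log2 fold changes -0.34, -0.95 and -0.85) and 0 higher. Of the 16 neural progenitor genes 1 was lower, of the 12 dorsal root ganglion genes 1 and of the 6 lumbar Hox genes 2, while 1 Schwann cell gene of 6, 1 notochord gene of 5 and 1 erythroid gene of 6 were higher. None of the 15 ventral neuron genes, 8 mesenchyme genes, 6 sclerotome genes, 3 gut endoderm genes or 5 endothelial genes passed.

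The embryos also differed in their level of sclerotome genes. Summed over 6 sclerotome genes, the 3 controls of litter 1 had 243, 328 and 271 CPM and cKO replicates 1, 2 and 3 had 226, 371 and 196 CPM. In litter 2 the controls had 260 and 291 CPM and cKO replicates 4 and 5 had 337 and 346 CPM, both above both controls. In that comparison 51.7% of all tested genes did not overlap in either direction. The sums of Schwann cell, mesenchyme, dorsal root ganglion, gut endoderm and erythroid genes were in the same order. Those of dorsal progenitor, Sonic hedgehog pathway and lumbar Hox genes were in the opposite order. Most of the sum came from *Col2a1* (group means of 180.8 to 236.5 CPM) and *Sox9* (56.9 to 95.4 CPM), the latter also being in the neural progenitor list. *Pax1*, a defining gene of sclerotome, was at 13.2 CPM in cKO replicate 2 and at 1.41 to 8.93 CPM in the other 9 embryos. Among the 3 embryos labelled *Dot1l*-cKO of litter 1, cKO replicate 2 was highest for 6 of the 7 members and cKO replicate 3 was lowest for 5. In the controls of litter 1, replicate 2 was highest for 5 of the 7 and replicate 1 lowest for 5. The same ranks were not counted over all tested genes, so it is not known whether these counts are particular to the members. The part of sclerotome in these differences, and in those between genotypes within litter 2, was not tested.

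As a description of shared variation, log2 CPM was centred on the litter mean and each member was compared with 13511 other genes over the 10 embryos, which share library and depth. *Nkx2-2* and *Nkx6-1* were among the 3 genes most like each other (Pearson r = 0.925). *Irx5* was closest to *Insm1* (r = 0.921), a zinc finger factor of newborn neurons, and second to *Dbx1* (r = 0.915). *Irx3* was closest to *Mrpl52* (r = 0.996), *Ccdc85b* (0.986) and *Ano8* (0.982), and *Nkx6-2* to *Uncx* (r = 0.962), *Ano8* (0.960) and *Vps37b* (0.954). *Pax6* was closest to *Socs4* (r = 0.972), *Pnrc2* (0.966) and *Rbbp5* (0.960), and *Foxa2* to *Setdb2* (r = 0.936), *Spred2* (0.907) and *Zfhx3* (0.877). Also among the 3 most similar genes were *1700086O06Rik* (r = 0.930) for *Nkx2-2*, *Pusl1* (r = 0.898) for *Nkx6-1* and *Tmem231* (r = 0.907) for *Irx5*. Without the 2 embryos farthest from the median of the member, the values fell to between 0.615 and 0.984.

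Several members share sequence with genes beside them. By the labels, libraries were made with the NEBNext Ultra RNA kit, which does not mark strand, and how the counting treated strand is not given in the sources used here, so reads of overlapping antisense genes cannot be told apart. *Nkx6-2* shares 246 bp of exon with *Inpp5a* on the opposite strand, which was at 29.7 to 36.3 CPM, far above *Nkx6-2*, and did not differ detectably between genotypes (log2 fold change -0.01, edgeR adjusted p = 0.953) or litters (0.12, edgeR adjusted p = 0.108). *Irx3* shares 124 bp of exon with *Irx3os*, at 0.649 to 1.97 CPM (genotype -0.13, edgeR adjusted p = 0.777, and litter 0.60, edgeR adjusted p = 0.0534). *Nkx2-2* shares 278 bp with *Nkx2-2os*, which was at most 0.115 CPM.

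Within 10 kb of the members lay 10 further genes without shared exon. *Elp4*, beside *Pax6*, was higher in litter 2 (0.25, edgeR adjusted p = 0.00685), as was *Crnde*, which starts beside *Irx5* on the opposite strand (0.45, edgeR adjusted p = 0.0399), and neither passed between genotypes (edgeR adjusted p = 0.442 and 0.545). *Paupar* beside and *Pax6os1* across the start of *Pax6*, *9030622O22Rik* beside *Foxa2* and *6430503K07Rik* within *Nkx2-2* were at 0.0878 to 0.698 CPM and passed neither test. *Gm27420* beside *Foxa2*, *Gm26973* and *Gm38103* beside *Nkx2-9* and *Gm36380* beside *Irx3* were at most 0.115 CPM and were not tested.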

How the data were processed

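RNA-seq libraries of 10 embryos were analysed, 5 controls and 5 labelled *Dot1l*-cKO, grouped by the labelled genotype and by litter. The litter was inferred from a number in the sample title. The deposited values are counts of reads per gene, which the authors made by trimming with TrimGalore, aligning with STAR to mm10 and counting with featureCounts on GENCODE annotation through snakePipes. How the counting treated strand is not given in the sources used here. Positions are those of mm10, and promoters are from RefSeq on GRCm38.p6.

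Counts were normalized by TMM, filtered with filterByExpr (19773 of 54146 genes kept) and tested with edgeR 4.0.16 (quasi-likelihood, R 4.3.3), with genotype and litter in the model for the comparisons over all embryos and with 4 group means for those within a litter or genotype. P-values were adjusted by the Benjamini-Hochberg method over all tested genes, with a threshold of 0.05. Totals of 40949585 to 68928443 counts per embryo set the counting precision, and intervals are 95% intervals of the model. In simulated data with 200 of 19773 genes changed by 0.8 on the log2 scale, 69% were recovered between genotypes, 75.5% between litters, 62% between genotypes in litter 1, 49.5% in litter 2 and 48.5% for the difference between litters, with 3.88 to 8.33% of calls false. The change of 0.8 is above the largest genotype difference of a member (0.57), and smaller changes were not simulated. The unchanged genes were simulated without a litter difference. Replicates were numbered in accession order. None of the 20 pairs of embryos within a genotype agreed within sampling noise (chi-square per gene 9.31 to 85.2), and each was counted as a sample. The labels do not say more on how embryos were sampled.

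Alternatives were other scalings (DESeq2 size factors, library size, the summed neural progenitor genes), other filters, DESeq2 1.42.0, limma-voom (limma 3.58.1), edgeR with legacy = FALSE, *Xist* as a covariate, the other factor left out, a fit on 1 litter alone and each embryo left out. All 8 members are described in full. Of the other lists, ventral progenitor, Sonic hedgehog pathway and paralog genes are named where they passed or were the highest or lowest, with partners of the members, *Shh* and *Foxa1*, and genes within 10 kb of a member and the 3 most similar genes are named too. The remaining lists are given by counts, some with medians, sums or single genes, which names fewer of their called genes than the naming rule asked for. The members and lists were chosen with earlier results of these data known. Some genes that the naming rule covers are not reported here, though they remain in the counts and medians of their lists.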

Additional observations from a re-analysis of the deposited data

Results flagged for a closer look

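In groups of 4 to 6 embryos, 5 values stood apart from the rest by Dixon's criterion, of 32 combinations of a member and a group, where chance flags about 1 in 20 groups. *Nkx2-2* was at 4.17 CPM in control replicate 5, with the nearest control at 3.58 CPM, and at 5.23 CPM in cKO replicate 2, with the nearest embryo of litter 1 at 3.75 CPM. *Irx3* was at 15.8 CPM in the same cKO replicate 2, with the nearest embryo of litter 1 at 9.06 CPM. *Nkx2-9* was at 0.0 CPM in control replicate 4, with the nearest control at 0.147 CPM, and at 0.0333 CPM in cKO replicate 1, with the nearest embryo of litter 1 at 0.147 CPM. The values of *Nkx2-9* rest on 11 counts or fewer per embryo.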

How the results depend on the processing

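No paired analysis was possible because the replicate numbers were given in accession order and do not link embryos across genotypes, and the litter was in the model instead. The number of members that passed between genotypes was 0 and became 2 with no filter on low counts, and ranged from 0 to 2 with each embryo left out, while the share of all genes called was 2.99%, 6.25% and 0.26 to 7.01%. Between litters it was 5 and became 2 when scaled to the neural progenitor genes and 2 with *Xist* as a covariate, and ranged from 3 to 5 with each embryo left out, beside shares of 34.7%, 61.8%, 24.2% and 28.7 to 35.5% of all genes. Within litter 1 and within litter 2, no filter gave 1 member each (*Irx3*) in place of 0 between genotypes, beside 3.96% and 3.79% of all genes in place of 0.612% and 0.202%. Between litters among controls, no filter gave 4 in place of 2 (14.5% of all genes in place of 24.2%), and leaving out an embryo gave 1 to 3 (10.4 to 26.2%). Among embryos labelled *Dot1l*-cKO, the progenitor scaling gave 1 and no filter 4 in place of 2 (52.5% and 13.2% of all genes in place of 21.3%), and leaving out an embryo gave 1 to 4 (7.99 to 24%). The other alternatives run kept these counts within 1.5 times. The cause of the changes was not tested.

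Signs turned for small differences. Between litters, the progenitor scaling gave *Foxa2* -0.0935, *Nkx2-2* -0.312 and *Nkx6-1* -0.114, and *Nkx2-2* was -0.0416 by library size, -0.00445 with no filter and -0.00255 with at least 10 counts in every embryo. *Pax6* between genotypes in litter 1 was 0.0455 with the progenitor scaling. With each embryo left out, *Nkx2-2* (-0.0670 to 0.165) and *Nkx6-1* (-0.0266 to 0.0778) between genotypes and *Nkx2-2* between litters (-0.0692 to 0.130) took both signs. The same held in litter 1 for *Nkx2-2* (-0.0682 to 0.353), *Nkx6-1* (-0.0278 to 0.167), *Pax6* (-0.0962 to 0.0388), *Irx3* (-0.00698 to 0.548) and *Irx5* (-0.00549 to 0.360), and in litter 2 for *Foxa2* (-0.171 to 0.0242), *Nkx2-2* (-0.183 to 0.0562), *Nkx6-1* (-0.115 to 0.0605) and *Irx5* (-0.0693 to 0.230). *Xist* as a covariate was not run for the comparisons within a litter or genotype. *Nkx2-9*, which the main filter removed, was tested with no filter, by DESeq2 between litters and in 5 of the fits with an embryo left out, and passed in no comparison.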
